A study of Mus musculus with 8 samples.

Results

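The potassium channel genes measured in total RNA from the brain of male mice, 2 to 4 months old, were taken as every gene whose symbol begins with Kcn and is named alone by a probe set, leaving out Kcnj8, Kcnj10, Kcnj13 and Kcne2, which mark mural cells, astrocytes and choroid plexus. This gave 88 of 19938 named genes, held by 91 probe sets. Where a gene had several probe sets, the one with the highest mean over the 8 arrays stood for it, so the choice used no difference between the groups. The 88 comprise 69 genes of channel-forming subunits, 15 of auxiliary subunits, the regulator gene Kcnrg and 3 RNAs transcribed opposite a channel gene.

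The comparison bears on the brain of mice without TNF, tumour necrosis factor, a cytokine of immune cells and glia. One group was labelled TNF-/- and the other TNF+/+ C57BL/6, with 4 biological replicates each, and each sample has 1 Affymetrix array of the type Mouse Gene 1.0 ST. The labels give neither the Tnf allele nor the strain background of the TNF-/- mice, and do not say whether the groups were littermates. A brain lysate pools cell types, so fewer cells of a type and less RNA per cell cannot be told apart. Values are log2 signals as the authors deposited them, and a difference is the mean of arrays labelled TNF-/- minus that of arrays labelled TNF+/+.

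The arrays had facts that touch what follows. Tnf signal went against the labels, at 5.67, 5.87, 5.92 and 6.21 in the arrays labelled TNF-/- and 4.48, 4.93, 4.24 and 4.47 in those labelled TNF+/+ (limma, adjusted p = 0.0278). Neither the deleted part nor the place of the probes was known here, so this signal is no check of the labels and every direction below is that of arrays as labelled. TNF+/+ arrays 3 and 4 stood apart from the other 6 on the first principal component of all probe sets, with scores of 22.05 and 37.22 against -4.29 or lower. TNF+/+ array 1 had a mean of 7.75 over 8 cerebellar granule cell markers, against 6.13 to 6.27 in the other arrays. Markers common to neurons, the main cells for most of these channels, had list means of 10.78 to 10.83 under the label TNF-/- and 10.76 to 10.81 under TNF+/+, and the 4 markers of heart and skeletal muscle were dim, below the median of all probe sets.

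Potassium channels set the resting potential of neurons, end each action potential and limit how fast and how often a neuron fires. Voltage-gated channels open on depolarisation and calcium-activated ones when calcium enters. Inward rectifiers carry current mainly near rest, and some of them are controlled by G proteins or ATP. Two-pore domain channels leak at all voltages. Auxiliary subunits change how these pores traffic and gate. In brain, most of the channels are made by neurons, with the Kv1 type sited on axons, the Kv4 type on dendrites and the M-current type at the axon's initial segment.

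TNF acts in part through the transcription factor NF-kB, so the promoters of the genes were searched for the NF-kB consensus on both strands. RefSeq windows of GRCm38.p6, from 250 bases before to 50 after a start, were given for 66 of the 88 genes, 90 windows in all. A match stood in 8 of the 90 windows (8.89%) and in 4.51% of all 32851 windows. The matching windows of Kcnc2 overlap and share the same place. The 90 windows had a median of 58.3% G or C, against 52.7% in all windows, and its part in these shares was not tested. A match was found in 6 of the 66 genes (9.09%, against 5.14% of all genes), and none of the 6 places overlapped a GC box. They are shown because they set the matched letters, in capitals, beside the differences given later. All are read 5′ to 3′ on the strand of the gene, at chr10:112271106-112271135 (+), chr17:83632044-83632073 (-), chr5:48599878-48599907 (-), chr10:116473751-116473773 (-), chr8:70863355-70863384 (-) and chr12:11150604-11150623 (-) in this order.
Kcnc2: gcaggcagctGGGGCACTCCtggcctcctc
Kcng3: gcggggcgccGGGGAATCCCagccggagcg
Kcnip4: aagttccttgGGAGTGTCCCttcttcgtgg
Kcnmb4: ctcGGGGAGCCCCggggtgccgg
Kcnn1: atcagctgctGGAGTCTCCCggcgtctctc
Kcns3: GGGACACTCCtgaggaggtg
The match in Kcng3 reads on both strands, those in Kcnc2 and Kcns3 on the strand of the gene and the others on the opposite strand. Of the 6 genes, 3 had a difference above 0 and 3 below 0, from -0.22 (Kcng3, Kcnmb4) to 0.09 (Kcnip4, Kcnn1). A match of letters is a description and no measured binding.

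The 250 bases before the start are shown for Kcna2, the gene with the largest positive difference, at chr3:107101317-107101566 (+), and for Kcng3, the gene with the smallest p in the main fit, at chr17:83631896-83632145 (-). They differ in base composition, and capitals mark the NF-kB match.
Kcna2: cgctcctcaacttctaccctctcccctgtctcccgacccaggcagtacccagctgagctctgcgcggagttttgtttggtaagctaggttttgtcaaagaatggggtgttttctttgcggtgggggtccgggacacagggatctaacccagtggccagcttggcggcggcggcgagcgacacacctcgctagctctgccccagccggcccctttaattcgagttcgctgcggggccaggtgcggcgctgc
Kcng3: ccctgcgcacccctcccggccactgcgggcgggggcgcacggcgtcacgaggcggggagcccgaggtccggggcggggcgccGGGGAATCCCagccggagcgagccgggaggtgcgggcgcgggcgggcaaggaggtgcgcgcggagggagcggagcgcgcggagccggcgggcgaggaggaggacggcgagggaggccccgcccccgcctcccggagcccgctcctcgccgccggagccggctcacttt
The Kcna2 stretch is 62.4% G or C with 18 CpG dinucleotides and no match on either strand. The Kcng3 stretch is 82.4% G or C, has 41 CpG dinucleotides and holds the GC box GGGCGG in 4 places on either strand. This box stood in 47.8% of the windows of the 88 genes and in 35.7% of all windows.

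No potassium channel gene passed the test. With p-values adjusted over all 35556 probe sets, limma called 0 of the 88 genes, and 29 probe sets overall (0.0816%). The smallest adjusted p was 0.247, for Kcng3. Significance Analysis of Microarrays (SAM), the method in the study's design text, called 53 probe sets and also 0 of the 88 genes. At an unadjusted limma p under 0.05 there were 3 genes higher in the arrays labelled TNF-/- (3.41%, against 7.37% of all genes) and 3 lower (3.41%, against 4.28%). Both shares were below those of all genes, but they leave out Kcnj10 and Kcnj13, which were higher at that p. With arrays set to a common median the split was 1 higher and 5 lower (6.82% in all, against 11.3% of all genes). After quantile normalization it was 3 higher and 7 lower, and the share of these genes was then above that of all genes (11.4%, against 9.86%).

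The differences in signal were small, and their intervals were about as narrow as those of all genes. The differences ran from -0.31 (Kcnj14) to 0.29 (Kcna2) with a median of -0.01, where all genes had a median of -0.01. Of the 88 genes, 39 were above 0 (44.3%, against 47.8% of all genes) and 49 below. The unadjusted 95% interval lay within 0.5 log2 units of 0, that is within 1.41-fold either way, for 85 of the 88 genes, against 93.5% of all genes. The exceptions were Kcnj14 (-0.79 to 0.17), Kcna2 (0.05 to 0.53) and Kcnk2 (-0.50 to -0.11). Of the 33 genes below the median of all probe sets, 32 were among the 85. For such dim genes a narrow interval of signal does not bound a change in RNA. The mean over the 88 genes was 6.32, 6.31, 6.31 and 6.30 in the arrays labelled TNF-/- and 6.34, 6.33, 6.32 and 6.31 in those labelled TNF+/+.

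**Figure D1:**
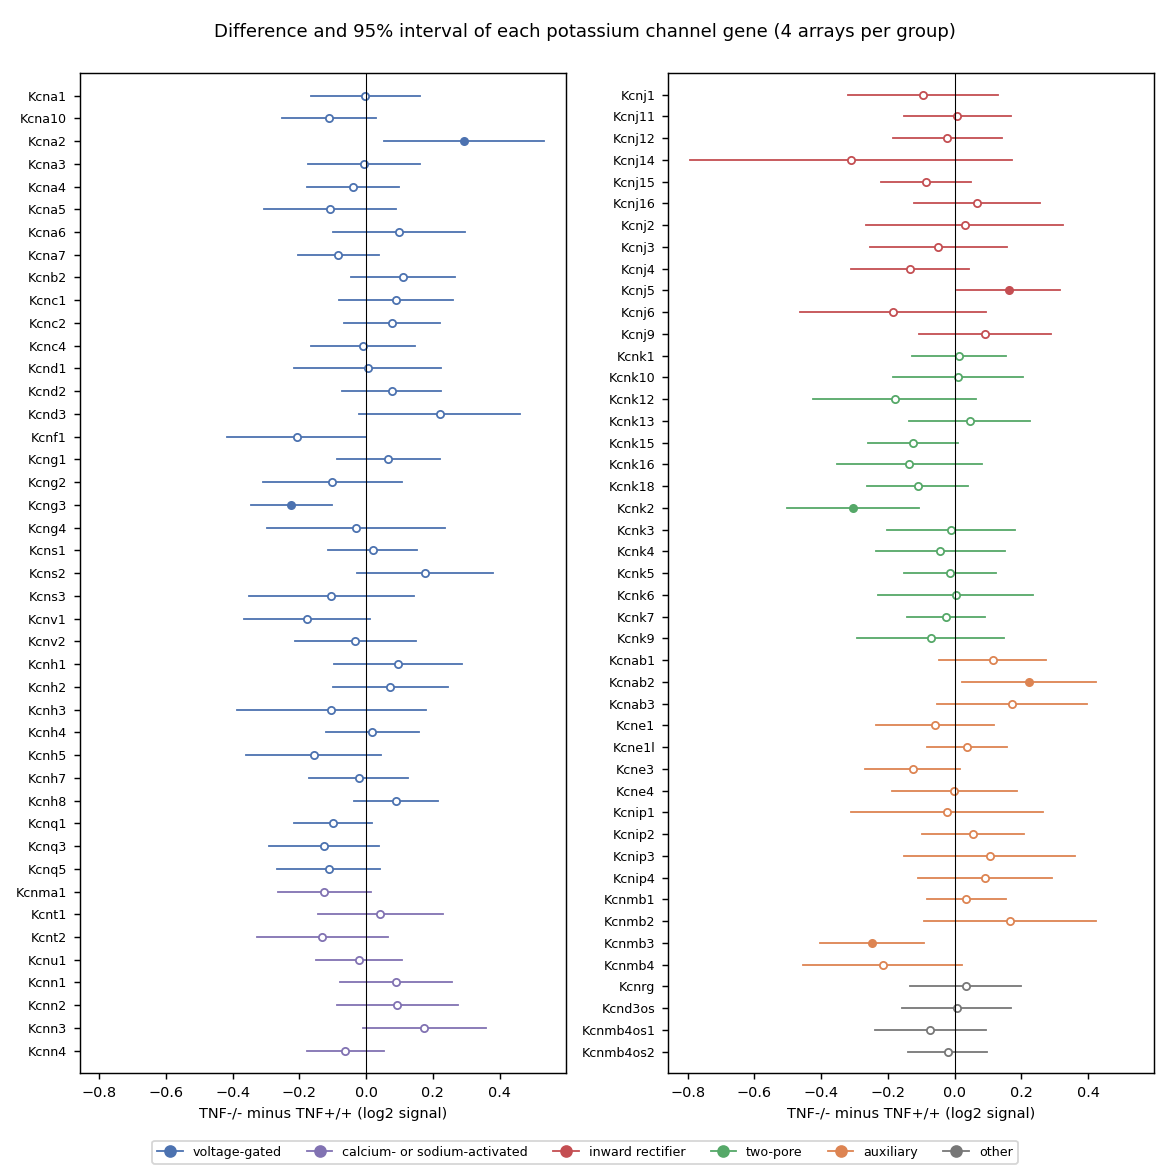
Difference of each of the 88 genes on the log2 scale (x axis) with limma's unadjusted 95% interval (line), coloured by channel class; filled points have an unadjusted p under 0.05. Filled points are Kcna2, Kcnab2 and Kcnj5 to the right and Kcng3, Kcnk2 and Kcnmb3 to the left, and no point lies beyond -0.31 or 0.29.

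Brighter and dimmer genes differed in direction across the whole array, so the 88 were read against both. Of the 88, 55 had a mean above the median over all probe sets, 5.08, and 33 a mean below it, where the array measures change poorly. Among the 55 brighter genes 29 (52.7%) were above 0, against 64.4% of the 10674 brighter genes in all, and their median was 0.01 against 0.05. At an unadjusted p under 0.05, 2 of the 55 (3.64%) were higher, against 12.3% of brighter genes, and 2 (3.64%) were lower, against 3.29%. Of the 33 dim genes 10 (30.3%) were above 0, against 28.7% of dim genes, with 1 higher (3.03%, against 1.74%) and 1 lower (3.03%, against 5.43%) at that p. Among brighter genes the share of higher genes within the 88 was thus below that of all genes. That share leaves out Kcnj10 and Kcnj13, both brighter and higher at that p, at 0.67 and 0.25. Kcne2, brighter, and Kcnj8, dim, were left out too, at -0.01 and -0.03. The difference from the share of all genes was not tested. The counts above and below 0 given for subfamilies take brighter and dim genes together and were not tested either.

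**Figure D2:**
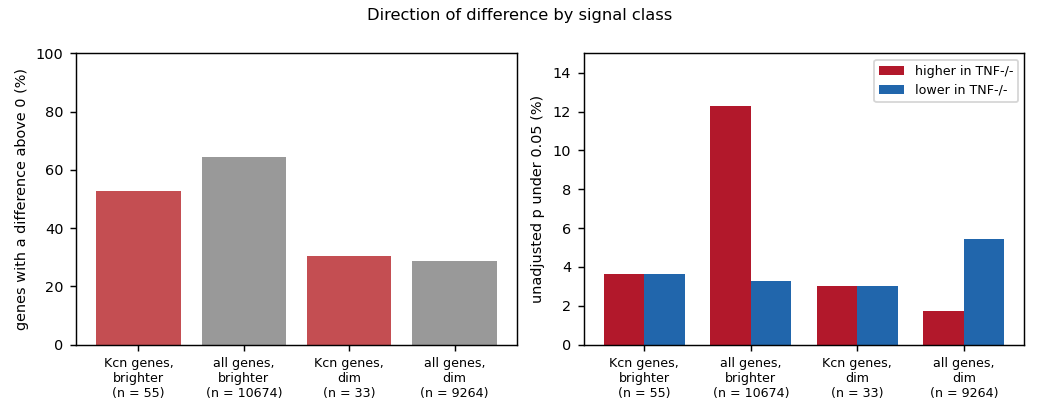
Share of genes with a difference above 0 (left, percent) and with an unadjusted limma p under 0.05 in each direction (right, percent), for brighter and dim potassium channel (Kcn) genes and for all brighter and dim genes; group sizes are under the bars. Among all brighter genes 12.3% were higher in the arrays labelled TNF-/- at this p, among the 55 brighter Kcn genes 3.64%. The 55 leave out Kcnj10 and Kcnj13, both higher at this p.

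The Kcna genes encode the pore subunits of Kv1 channels, which keep axons from firing repeatedly. Of the 8 measured, 2 were above 0 and 6 below. Kcna2, the axonal subunit most often found with Kcna1, had signals of 9.38, 9.40, 9.51 and 9.40 in the arrays labelled TNF-/- and of 9.28, 9.35, 8.88 and 9.02 in those labelled TNF+/+. The groups did not overlap, but TNF+/+ arrays 1 and 2 lay just below the lowest array labelled TNF-/-, and TNF+/+ arrays 3 and 4 lay far lower. The difference was 0.29 ± 0.10 (SE), or 1.23-fold (limma, adjusted p = 0.392). Without TNF+/+ arrays 3 and 4 it was 0.11, and it had no unadjusted p under 0.05 then, nor without TNF-/- array 3 or TNF+/+ array 4 alone. A further probe set of Kcna2 differed by 0.14 ± 0.05 (adjusted p = 0.401).

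Of the other Kv1 pore genes none had an unadjusted p under 0.05. Kcna1, its usual partner, was at 8.30 ± 0.12 (SD, n = 4) under TNF-/- and 8.30 ± 0.05 under TNF+/+. Kcna4, a subunit that inactivates, differed by -0.04 ± 0.06 (SE), and Kcna6 by 0.10 ± 0.09. The 2 genes that lie beside Kcna2 in the gene order of chromosome 3 among the potassium channel genes, Kcna3 and Kcna10, differed by -0.01 and -0.11, and Kcna5, Kcna1 and Kcna6, neighbours on chromosome 6, by -0.11, -0.00 and 0.10. Kcna5, Kcna7 and Kcna10 were dim, with Kcna7 at -0.08 and Kcna10 at -0.11.

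The Kcnab genes encode the cytoplasmic beta subunits that Kv1 channels carry. All 3 were above 0. Kcnab2 had signals of 9.997, 9.92, 10.28 and 10.21 in the arrays labelled TNF-/- and of 9.81, 9.83, 9.92 and 9.95 under TNF+/+, and it differed by 0.22 ± 0.09 (SE), or 1.17-fold (limma, adjusted p = 0.429). The groups overlapped, since TNF-/- array 2 lay below TNF+/+ array 4, and the high values were those of TNF-/- arrays 3 and 4. Kcnab3 had the same high arrays (8.23, 8.09, 8.44 and 8.47 against 7.99, 8.14, 8.17 and 8.23) and differed by 0.17 ± 0.10, and Kcnab1 differed by 0.11 ± 0.07. Kcnab2 lost its unadjusted p under 0.05 without TNF-/- array 3 or 4 or TNF+/+ array 1 or 2, and with arrays set to a common median.

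TNF-/- arrays 3 and 4 also had the highest means of the list for parvalbumin and other GABA neurons, 10.04 and 10.06 against 9.73 to 9.86 in the other 6. That list held 4 measured markers, all above 0, with Gad2 at 0.32 and Gad1 at 0.26 but Pvalb and Tac1 at 0.02, and ran from 9.81 to 10.06 under TNF-/- and from 9.73 to 9.82 under TNF+/+. The same arrays were also highest for the list of brainstem serotonin neurons (2 measured markers), at 6.31 and 6.72 against 4.35 to 6.05 in the other 6. The part of either list in the Kcnab differences was not tested. Means over the 3 Kcnab genes were 9.30, 9.24, 9.52 and 9.51 under TNF-/- and 9.18, 9.19, 9.26 and 9.25 under TNF+/+.

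The Kcnb, Kcnc and Kcnd genes encode the main delayed rectifiers, the fast channels of rapidly firing cells and the A-type channels of dendrites. Of these 7 genes, 6 were above 0 and none had an unadjusted p under 0.05. Kcnd3 had the largest difference, 0.22 ± 0.11 (SE; limma, adjusted p = 0.495), with 7.23, 7.20, 7.10 and 7.0 under TNF-/- and 6.99, 7.17, 6.76 and 6.75 under TNF+/+. Its low values were those of TNF+/+ arrays 3 and 4. The same arrays were lowest for Kcnb2 (7.25 and 7.27, the other 6 between 7.45 and 7.49), where the difference was 0.11 ± 0.07, and for Kcnc1 (7.57 and 7.59), a subunit of fast-spiking cells, at 0.09 ± 0.08. Kcnc2 was at 0.08 ± 0.06, Kcnc4 at -0.01 ± 0.07, Kcnd2, the main dendritic A-type subunit, at 0.08 ± 0.07 and Kcnd1 at 0.00 ± 0.10.

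Over the 88 genes, TNF+/+ arrays 3 and 4 held the lowest pair of the 8 signals in 9 (10.2%) and the highest pair in 4 (4.55%), against 6.94% and 9.1% of all genes. The 9 were Kcna2, Kcnb2, Kcnc1, Kcnc2, Kcnd3, Kcnip4, Kcnk13, Kcns2 and Kcnt1, and the 4 were Kcne3, Kcnk2, Kcnk4 and Kcnmb4. Mature oligodendrocyte markers were highest in the same arrays, with list means of 9.55 and 9.56 against 9.26 and 9.39 in TNF+/+ arrays 1 and 2 and 9.12 to 9.23 under TNF-/-. All 7 of these markers were below 0 (median -0.32), and 7 of 7 meningeal fibroblast markers were above 0, with list means of 6.41 to 6.48 under TNF-/- and 6.09 to 6.32 under TNF+/+. The part of either list in the channel differences was not tested.

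The Kcnip genes encode calcium-binding partners of the A-type channels. Of 4, 3 were above 0, and Kcnip2, Kcnip3 and Kcnip4 differed by 0.06 ± 0.07 (SE), 0.10 ± 0.11 and 0.09 ± 0.09. Kcnip1 was at 7.35 ± 0.04 (SD, n = 4) under TNF-/- and at 7.38 ± 0.28 under TNF+/+, where array 1 (7.01) was the lowest of all 8 arrays and array 4 (7.69) the highest. The wide spread lay within 1 group and gave a difference of -0.02 ± 0.13.

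Kcnf1, Kcng, Kcns and Kcnv genes encode silent subunits, which form no channel alone and modify Kcnb channels. Of 10, 3 were above 0 and 7 below. Kcng3 had signals of 6.60, 6.55, 6.54 and 6.48 in the arrays labelled TNF-/- and of 6.79, 6.77, 6.81 and 6.69 in those labelled TNF+/+. Every array labelled TNF-/- lay below every array labelled TNF+/+, and the SD was 0.05 in both groups. The difference was -0.22 ± 0.05 (SE), or 1.17-fold lower (limma, adjusted p = 0.247). With 1 array left out it ran from -0.25 to -0.20, with an unadjusted p under 0.05 in all 8 cases. Over the 88 genes, 2 lay wholly above (2.27%, against 4.16% of all genes) and 4 wholly below (4.55%, against 3.5%). Kcnj10 and Kcnj13, outside the 88, lay wholly above.

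Kcng3 is on chromosome 17, as is Tnf, with Kcng3 410 measured genes away. The other potassium channel genes of that chromosome were Kcnk12, 440 measured genes away, at -0.18 ± 0.11 (SE), and Kcnh8, 231 away, at 0.09 ± 0.05. Neither had an unadjusted p under 0.05.

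Among the other silent subunits, Kcnf1 was at 7.01, 7.30, 7.34 and 7.31 under TNF-/- and 7.49, 7.50, 7.28 and 7.53 under TNF+/+. TNF+/+ array 3 was low and overlapped the other group, and TNF-/- array 1 was the lowest of all 8. The difference was -0.21 ± 0.09 (SE; limma, adjusted p = 0.462), and -0.13 without TNF-/- array 1. Kcnv1 differed by -0.18 ± 0.08 and Kcns2, in the opposite direction, by 0.18 ± 0.09. Kcng1, Kcng2, Kcng4, Kcns1, Kcns3 and Kcnv2 lay between -0.10 and 0.07.

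**Figure D3:**
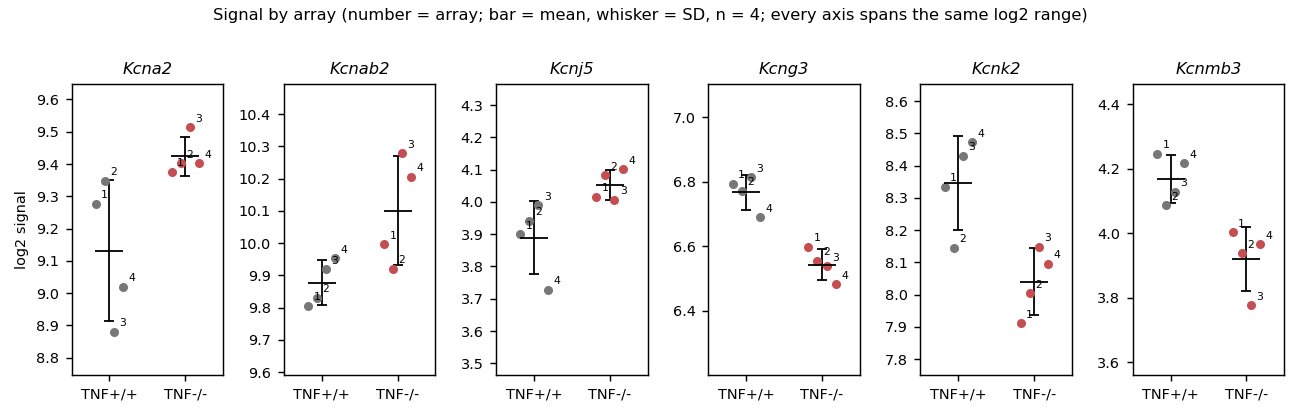
Log2 signal (y axis, the same span in each panel) of the 6 genes with an unadjusted limma p under 0.05, by label; each point is 1 array with its number, the bar is the mean and the whisker the SD (n = 4). The groups do not overlap for Kcna2, Kcnj5, Kcng3 and Kcnmb3, and TNF+/+ arrays 3 and 4 set the low mean of Kcna2.

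The Kcnh genes, which include the ether-a-go-go and Erg channels, gave 4 above 0 and 3 below. They ran from -0.16 ± 0.09 (SE) for Kcnh5 to 0.10 ± 0.08 for Kcnh1. The Erg subunits Kcnh2 and Kcnh7 were at 0.07 ± 0.08 and -0.02 ± 0.07, and Kcnh4 was at 0.02 ± 0.06. The Kcnq genes encode M-current channels, which muscarinic receptors close, and all 3 measured were below 0. Kcnq3 was at 8.94 ± 0.11 (SD, n = 4) under TNF-/- and 9.07 ± 0.08 under TNF+/+, a difference of -0.13 ± 0.07 (SE), and Kcnq5 was at -0.11 ± 0.07. Kcnq1, a heart and ear subunit that was dim here, was at -0.10 ± 0.05, with every array labelled TNF-/- (3.7798 to 3.8705) below every array labelled TNF+/+ (3.8711 to 3.994). The groups all but touched, and none of the 3 genes had an unadjusted p under 0.05.

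Kcnma1 encodes the pore of the BK channel, which calcium and voltage open together, and the Kcnmb genes its beta subunits. Kcnma1 had signals of 9.37, 9.32, 9.36 and 9.24 in the arrays labelled TNF-/- and of 9.50, 9.54, 9.38 and 9.38 in those labelled TNF+/+. The groups did not overlap, though TNF+/+ arrays 3 and 4 lay next to the highest arrays labelled TNF-/-, and the difference was -0.13 ± 0.06 (SE; limma, adjusted p = 0.497). Without TNF+/+ arrays 3 and 4 it was -0.20, with an unadjusted p under 0.05. A further, dim probe set of Kcnma1 differed by -0.13 ± 0.07. Kcnmb4, the main neuronal beta subunit, was at 7.76, 7.56, 7.55 and 7.41 against 7.75, 7.60, 7.77 and 8.02, or -0.22 ± 0.10 (adjusted p = 0.497). Its groups overlapped, with TNF+/+ array 4 the highest.

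Kcnmb3, a beta subunit that makes BK channels inactivate, had signals of 4.00, 3.94, 3.78 and 3.97 under TNF-/- and of 4.25, 4.09, 4.13 and 4.22 under TNF+/+. The groups did not overlap, and the difference was -0.25 ± 0.07 (SE), or 1.19-fold lower (limma, adjusted p = 0.286). The probe set was dim, and dim genes as a whole had a median of -0.04. Kcnmb2 differed by 0.17 ± 0.11 and Kcnmb1, the smooth muscle subunit, by 0.03 ± 0.05. The pore and beta subunit genes of the BK channel thus lay on both sides of 0. The RNAs opposite Kcnmb4, Kcnmb4os1 and Kcnmb4os2, were dim and differed by -0.07 and -0.02, and Kcnd3os, opposite Kcnd3, by 0.01.

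The sodium-activated Kcnt1 and Kcnt2 differed by 0.04 ± 0.08 (SE) and -0.13 ± 0.09, and Kcnu1, a sperm channel, was dim. The Kcnn genes encode small-conductance channels that follow calcium entry and slow firing. Kcnn1, Kcnn2 and Kcnn3 were above 0, at 0.09 ± 0.07, 0.09 ± 0.08 and 0.17 ± 0.08. Kcnn3 was at 7.95, 7.88, 8.09 and 7.97 against 7.65, 7.72, 7.94 and 7.89 (limma, adjusted p = 0.485). Its low arrays were TNF+/+ 1 and 2, and without TNF+/+ arrays 3 and 4 the difference was 0.29, with an unadjusted p under 0.05. Kcnn4, a channel of blood and immune cells, was dim.

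The Kcnj genes encode inward rectifiers, and 5 of 12 were above 0. The neuronal G protein-gated subunits Kcnj3, Kcnj6 and Kcnj9 differed by -0.05 ± 0.09 (SE), -0.18 ± 0.12 and 0.09 ± 0.09. Kcnj5, the subunit best known from heart, was dim, at 4.02, 4.08, 4.01 and 4.10 under TNF-/- and 3.90, 3.94, 3.99 and 3.73 under TNF+/+. The groups did not overlap, and the difference was 0.16 ± 0.07 (limma, adjusted p = 0.445). It lost its unadjusted p under 0.05 in 6 of the 8 cases with 1 array left out (all but without TNF+/+ array 2 or 3), and with arrays set to a common median.

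Among the other inward rectifiers, Kcnj11, the pore of the ATP-sensitive channel, was at 6.32 ± 0.07 (SD, n = 4) and 6.32 ± 0.11. Kcnj4, a strong rectifier of forebrain neurons, was at -0.13 ± 0.08 (SE), Kcnj2 and Kcnj12, strong rectifiers too, at 0.03 ± 0.13 and -0.02 ± 0.07, the kidney channel Kcnj1 at -0.10 ± 0.10 and Kcnj16, which pairs with the astrocyte subunit Kcnj10, at 0.07 ± 0.08. Kcnj14, a dim gene, varied most of the 88, with 4.21, 4.53, 4.22 and 4.23 under TNF-/- and 4.32, 5.03, 4.98 and 4.10 under TNF+/+. TNF+/+ arrays 2 and 3 were high and TNF+/+ array 4 the lowest of all, and the difference was -0.31 ± 0.21 (adjusted p = 0.613). Leaving out TNF+/+ array 2 gave -0.17, array 3 of the same group -0.19 and array 4 -0.48. The astrocyte gene Kcnj10, which is outside the 88, was at 8.37, 8.35, 8.25 and 8.40 under TNF-/- and 7.37, 7.83, 7.70 and 7.82 under TNF+/+, a difference of 0.67 ± 0.10 (limma, adjusted p = 0.105), larger than that of any of the 88.

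The Kcnk genes encode two-pore domain leak channels, and 4 of 14 were above 0 and 10 below. Kcnk2, a channel opened by stretch, lipids and volatile anaesthetics, had signals of 7.91, 8.0, 8.15 and 8.10 in the arrays labelled TNF-/- and of 8.33, 8.15, 8.43 and 8.47 in those labelled TNF+/+. Only TNF-/- array 3 and TNF+/+ array 2 met, at 8.15. The difference was -0.31 ± 0.09 (SE), or 1.24-fold lower (limma, adjusted p = 0.307). It kept an unadjusted p under 0.05 with any 1 array left out (-0.37 to -0.26), and lost it, at -0.20, without TNF+/+ arrays 3 and 4, whose signals were the highest.

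Of the other Kcnk genes none had an unadjusted p under 0.05. Kcnk4 and Kcnk10, the closest relatives of Kcnk2, differed by -0.04 ± 0.08 (SE) and 0.01 ± 0.09. Kcnk1 was at 9.87 ± 0.07 (SD, n = 4) and 9.86 ± 0.07, with an interval of -0.13 to 0.15. The acid-sensitive Kcnk3 and Kcnk9 differed by -0.01 ± 0.08 and -0.07 ± 0.10, and Kcnk12 by -0.18 ± 0.11. Kcnk5, Kcnk6, Kcnk7, Kcnk13, Kcnk15, Kcnk16 and Kcnk18 were dim and lay between -0.14 and 0.04.

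**Figure D4:**
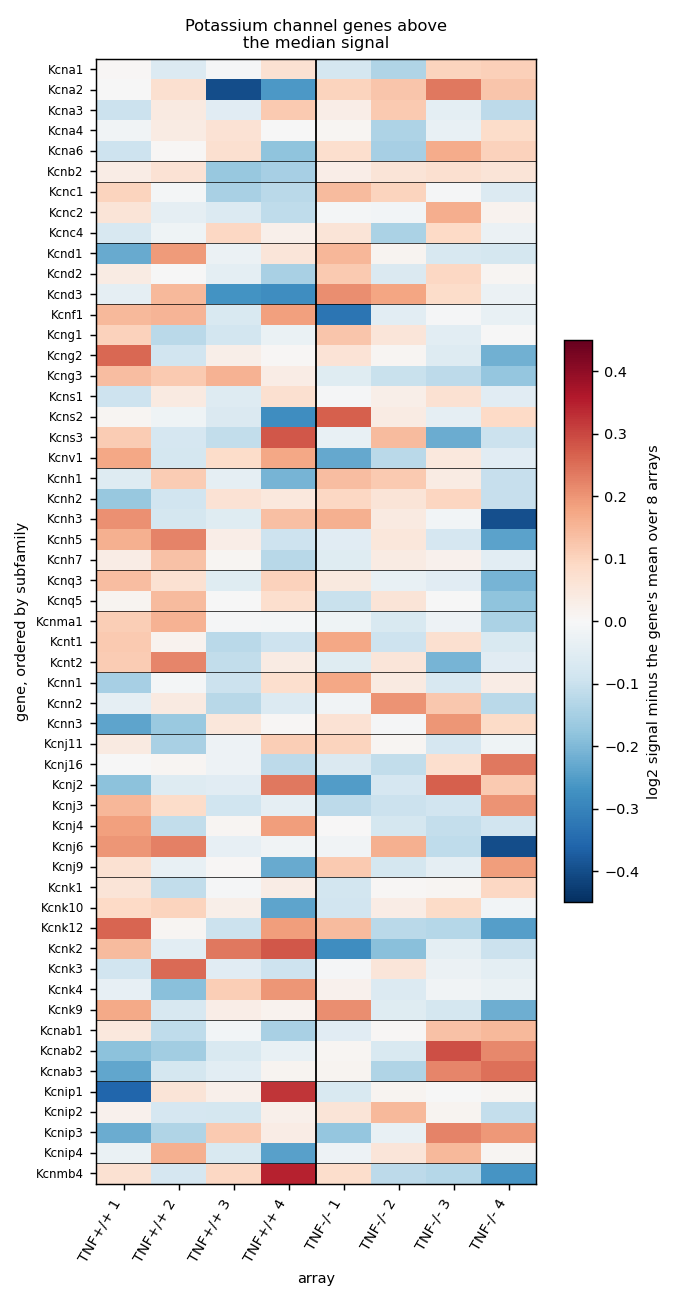
Log2 signal of the 55 brighter potassium channel genes in each array, minus the mean of that gene over the 8 arrays (colour, from -0.45 to 0.45), with genes ordered by subfamily and lines between subfamilies. Kcna2, Kcnb2 and Kcnd3 are lowest in TNF+/+ arrays 3 and 4, Kcnab2 and Kcnab3 are highest in TNF-/- arrays 3 and 4, and Kcng3 is lower in all 4 arrays labelled TNF-/-.

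TNF+/+ array 1, high in granule cell markers, had 1 of the 88 genes more than 0.3 above the mean of the other 7 arrays. This was Kcnk16 (4.50 against 4.10), and 278 of all 19938 genes passed the same limit. The next were Kcnk12 (0.30), Kcng2 (0.29), Kcng4 (0.26), Kcnk18 (0.24) and Kcnh3 (0.23). Of those named, Kcnk16, Kcng4 and Kcnk18 were dim. TNF+/+ array 1 was above the mean of the other 7 in 56 of the 88 genes (63.6%), against 44.3% of all genes. Kcnk9 and Kcnc1, both genes of cerebellar granule cells, exceeded that mean by 0.20 and 0.11, though TNF-/- array 1 was higher for both.

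The Kcne genes encode small single-span auxiliary subunits. All 4 measured were dim, with Kcne3 the furthest from 0 at -0.13 ± 0.06 (SE; limma, adjusted p = 0.505). Kcne1, Kcne1l and Kcne4 were at -0.06 ± 0.08, 0.04 ± 0.05 and -0.00 ± 0.08. Kcnrg, a soluble regulator of Kv assembly, was dim at 0.03 ± 0.07.

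Genes of other names that bind, anchor or complement potassium channels were compared last. Of 39 listed, 35 were measured, and limma and SAM called 0. None had an unadjusted limma p under 0.05 either, against 11.7% of all genes. They ran from -0.26 (Hcn2) to 0.15 (Tmem38b, a cation channel of the endoplasmic reticulum), with 21 above 0 and a median of 0.01. Dpp6 and Dpp10, partners of the A-type channels, differed by 0.10 ± 0.07 (SE) and 0.02 ± 0.08. The Kv1 axonal partners Cntnap2 and Lgi1 were at 0.09 ± 0.08 and 0.09 ± 0.06. Hcn2, a pacemaker channel of the related cation family, had the largest size of difference, -0.26 ± 0.12 (adjusted p = 0.481), and Abcc8, the partner of Kcnj11, was at -0.04 ± 0.07.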

How the data were processed

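Total RNA of 8 mouse brains, 4 per label, was measured on 8 arrays. The values the authors deposited are log2 signals, a scale read from their span (2.83 to 14.1), for 35556 probe sets. Per the submitters' processing notes the tools were GCOS, GCRMA and Partek, with no role given. The authors' genome build is not known here. Array medians were 5.03 to 5.11, and 0 columns were unused. The number of arrays limits the precision.

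Values were used unchanged. The platform annotation gives 21789 probe sets 1 gene symbol, 1621 several and 12146 none, so these last are unnamed here. All 88 potassium channel genes had a match by gene ID in RefSeq's GRCm38.p6 table, used for names, chromosomes and gene order.

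limma 3.58.1 in R 4.3.3 was fitted to all probe sets (lmFit with a genotype term and eBayes, whose prior had 2.52 degrees of freedom). Tests were two-sided, p-values were adjusted by Benjamini and Hochberg across the 35556 probe sets, and a gene was called at an adjusted p under 0.05. SE is limma's moderated standard error. SAM was rebuilt with 70 assignments, s0 of 0.0357 and an estimated false discovery rate of 4.49%. A gene is dim when its mean over the 8 arrays is under the median of all probe sets. No low signal was filtered out. The limma and SAM code was tested on simulated data. The members and lists were chosen with earlier results of these data known. Genes named are those with an unadjusted p under 0.05, per subfamily the highest mean and the 2 smallest p, those with a single array apart, the largest excesses of TNF+/+ array 1, and others for context, chosen after their values were seen. Alternatives were other scalings, filters, variance models, weights per array, blocking by replicate number, averaging of probe sets, SAM, and leaving out arrays. Labels call the samples biological replicates. Plots used matplotlib 3.10.9 in Python 3.11.15.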

Additional observations from a re-analysis of the deposited data

Results flagged for a closer look

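In groups of 4 arrays, 1 array stood apart from the other 3 in 11 of 176 groups tested over the 88 genes, and chance gives about 8.8. In the arrays labelled TNF-/- these were Kcna7 in array 1 (3.60, the others 3.51), Kcnc2 in array 3 (9.33, the others 9.16 to 9.19), Kcnf1 in array 1 (7.01, the others 7.30 to 7.34), Kcnj14 in array 2 (4.53, the others 4.21 to 4.23), Kcnj15 in array 2 (3.70, the others 3.63 to 3.64) and Kcnj3 in array 4 (8.73, the others 8.42 to 8.45). In the arrays labelled TNF+/+ these were Kcnf1 in array 3 (7.28, the others 7.49 to 7.53), Kcnh8 in array 3 (4.70, the others 4.65), Kcnk16 in array 1 (4.50, the others 4.10 to 4.15), Kcnk3 in array 2 (6.02, the others 5.67 to 5.71) and Kcnv2 in array 3 (4.02, the others 3.73 to 3.77).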

How the results depend on the processing

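Limma called 0 of the 88 genes under every alternative listed in the processing account, and SAM called 0. Over all probe sets, limma called 63 when only probe sets with 1 symbol were tested, 0 with the replicate number as a block, 0 without TNF+/+ arrays 3 and 4 (a choice made after seeing the data) and 1 to 20 with 1 array left out, and SAM called 53. Potassium channel genes higher at an unadjusted p under 0.05 numbered 3, and 1 with arrays at a common median, 5 with only probe sets of 1 symbol tested and 0 to 4 with 1 array left out. Those lower numbered 3, and 7 after quantile normalization, 5 with a common median, 6 with only probe sets of 1 symbol, 5 with a robust trended variance, 6 without TNF+/+ arrays 3 and 4 and 3 to 8 with 1 array left out. The share of the 88 genes past that p in either direction was above that of all genes after quantile normalization (11.4% against 9.86%), without TNF+/+ array 3 (10.2% against 9.21%) and without TNF+/+ array 2 (12.5% against 12.4%), and below it under the other alternatives fitted with limma. The median difference stayed between -0.03 and 0.01. With the replicate block there were 4 higher and 4 lower, and Kcnj5 lost its unadjusted p under 0.05. Across probe sets, deviations of TNF-/- arrays 1 to 4 correlated at 0.0672, 0.112, 0.0974 and 0.0742 with the same-numbered TNF+/+ array. Their highest correlation with a TNF+/+ array of another number was 0.0346, 0.0371, 0.101 and -0.0195. These values do not settle whether the numbers pair the samples, and the main fit used no pairing. The cause of the changes between alternatives was not tested. Dim signals limit what can be seen of 33 of the 88 genes.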
